A study of Rattus norvegicus with 8 samples.

Results

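Pumps that move calcium and sodium across membranes are described by 6 of the 17446 genes counted in rat whole blood: Atp2b1 and Atp2b4, which encode plasma membrane calcium ATPases, Atp2a2 and Atp2a3, which encode calcium ATPases of the endoplasmic reticulum, and Atp1b1 and Atp1b3, which encode beta subunits of the sodium potassium ATPase. They were taken by gene name and chosen by values of these libraries, the levels of Atp2b1 and of the other pumps before and after CMG in both models, so that all their values, and whether a member met the criterion of the study, are given as a description that tests nothing. All 6 were found, and 5 of them had enough counts to enter the fits.

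RNA sequencing of whole blood was performed in 8 libraries from male wild-type Wistar rats of 12 to 14 weeks of age, 2 libraries for each of 4 groups. Hypertension was induced in the AngII model by angiotensin II at 0.4 mg/kg/day, and the libraries before and after Chios mastic gum (CMG, a tree resin) are from weeks 1 and 5. It was induced in the DOCA–HS model by deoxycorticosterone acetate, a mineralocorticoid, at 100 mg/kg with 0.9% NaCl and 1% KCl as high salt, and the libraries before and after CMG are from weeks 3 and 7. CMG was given to both models at 220 mg/kg for 4 weeks between these time points. Every library came from a rat in which hypertension had been induced, and every library after CMG was also the later one, with no library of the same week without CMG analysed here, so that CMG and time cannot be told apart. The 2 models also differ in week, so that inducer and week cannot be told apart between them. Nothing in the labels says whether the libraries of a group came from separate rats. If they did not, the spread between them may be technical.

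Plasma membrane calcium ATPases move calcium out of the cell against its gradient and are activated by calmodulin. The sarco/endoplasmic reticulum calcium ATPases refill the internal calcium store from which blood platelets and lymphocytes release calcium on activation, and Atp2a3 is the member of that family best known from platelets and other blood cells. The sodium potassium ATPase keeps the sodium and potassium gradients of the cell; its beta subunit brings the catalytic alpha subunit to the membrane. In human genetics, the ATP2B1 locus is among those associated with blood pressure.

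The promoters of the paired plasma membrane pumps Atp2b1 and Atp2b4, and of Atp2a3, are shown because these genes had the highest, the lowest and the second highest log2 fold change of the members after CMG in the DOCA–HS model. Each runs from 250 bases before to 50 bases after the annotated start of transcription in RefSeq (assembly GRCr8), written 5′ to 3′ on the strand of the gene, with every GC box (GGGCGG on either strand, overlapping matches counted) in capitals. They lie at chr7:35622211-35622510 on the plus strand for Atp2b1, at chr13:47758827-47759126 on the minus strand for Atp2b4 and at chr10:58080402-58080701 on the plus strand for Atp2a3.
Atp2b1: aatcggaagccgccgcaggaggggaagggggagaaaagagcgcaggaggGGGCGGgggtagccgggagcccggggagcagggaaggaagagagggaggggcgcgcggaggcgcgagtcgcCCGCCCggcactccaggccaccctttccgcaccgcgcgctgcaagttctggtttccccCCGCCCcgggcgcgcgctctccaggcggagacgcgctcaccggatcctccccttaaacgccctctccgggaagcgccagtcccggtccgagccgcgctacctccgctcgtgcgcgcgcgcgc
Atp2b4: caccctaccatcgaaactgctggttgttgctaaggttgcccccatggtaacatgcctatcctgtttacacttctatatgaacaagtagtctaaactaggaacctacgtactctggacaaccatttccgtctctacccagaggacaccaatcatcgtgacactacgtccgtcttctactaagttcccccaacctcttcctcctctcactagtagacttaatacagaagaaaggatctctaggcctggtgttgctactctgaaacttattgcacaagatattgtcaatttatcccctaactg
Atp2a3: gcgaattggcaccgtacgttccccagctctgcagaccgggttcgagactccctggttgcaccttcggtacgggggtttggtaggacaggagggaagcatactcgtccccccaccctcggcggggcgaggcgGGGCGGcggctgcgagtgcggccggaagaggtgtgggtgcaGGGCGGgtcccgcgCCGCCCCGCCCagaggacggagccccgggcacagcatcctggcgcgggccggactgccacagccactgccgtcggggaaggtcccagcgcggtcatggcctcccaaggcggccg

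The Atp2b1 promoter held 3 GC boxes at a GC content of 74.3%, and the Atp2a3 promoter held 4 at 72.7%. The Atp2b4 promoter held 0 GC boxes at a GC content of 44.7%. Of the other members with an entry, Atp2a2 held 3 GC boxes and Atp1b3 held 6, and Atp1b1 had no entry in the table. Across 33469 rat promoters of this length, 33.1% held a GC box and the median GC content was 51.7%. None of the 5 members held the TATA box TATAAA, the E box CACGTG or the cyclic AMP response element TGACGTCA, which 14.2%, 6.42% and 1.83% of all promoters held on either strand. The CCAAT box (CCAAT on either strand) was found in the promoters of Atp2b4, Atp2a2, Atp2a3 and Atp1b3 and not in that of Atp2b1. Of all promoters, 37.5% held it. These are matches of letters in a window and not sites of binding.

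The libraries held 4149104 to 13205565 counts in genes, of which 61.9% to 84.3% fell on 2 hemoglobin genes, Hbb and LOC100134871. The second DOCA–HS library after CMG stood apart, with 651764 counts outside hemoglobin and 2686 genes that reached 10 counts, where the other libraries had 6097 to 8280, and with the lowest scaling factor (0.343, against up to 1.88). Fold changes of the members and platelet markers after against before CMG in DOCA–HS rats are therefore also given without it. Between the models this was done for Atp2b1, and for Atp2a3 after CMG. Red cell markers were abundant in every library, while of 12 heart muscle markers 0 or 1 had any count in a library. Levels are given as CPM, counts scaled to a common library size, normalized over the 8 libraries by the trimmed mean of M values (TMM), with the value of replicate 1 before that of replicate 2; they are not divided by gene length and are compared between libraries only.

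On this scale Atp2b1 was higher after CMG in DOCA–HS rats, while in AngII rats the libraries before and after CMG overlapped. In DOCA–HS rats its normalized CPM was 8.03 and 8.29 before CMG, from 145 and 78 counts, and 19.8 and 148 after CMG, from 257 and 210 counts. Both libraries after CMG lay above both before it, and above every AngII library, and they differed from each other far more than the libraries of any other group. In AngII rats its normalized CPM was 9.83 and 14.02 before CMG and 12.96 and 8.73 after CMG. The group means were 8.16 ± 0.179 CPM before and 83.7 ± 90.4 CPM after CMG in DOCA–HS rats, and 11.9 ± 2.97 and 10.8 ± 2.99 CPM in AngII rats (SD, n = 2 each). In order of level, the DOCA–HS group after CMG came first, followed by the AngII groups before and after CMG, which did not differ beyond their spread, and by the DOCA–HS group before CMG, which lay below both. As a tissue was measured in bulk, more cells of a type that carries the transcript and more transcript per cell cannot be told apart.

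The log2 fold change of Atp2b1 after against before CMG was 3.34 (SE 0.88) in DOCA–HS rats, a 10.1-fold difference and the 4th highest of 7720 genes tested. It met the criterion of the study, a log2 fold change beyond 1.5 with an unadjusted p of at most 0.05, as 1.79% of all genes did in this direction and 0.259% in the other. In AngII rats the log2 fold change was −0.11 (SE 0.34), and 0 of the 5 members tested met the criterion, beside 0.903% of all genes upregulated and 0.333% downregulated. Nothing is read from these counts, since the members were chosen with the values known. In the edgeR fits as described, 0 genes passed an adjusted p of 0.05 in either model, while 363 genes were higher and 116 lower at an unadjusted p of at most 0.05 in AngII rats, and 211 and 34 in DOCA–HS rats. DESeq2 gave 3 genes with an adjusted p under 0.05 in AngII rats and 0 in DOCA–HS rats. These counts depended on the setting: without the count minimum edgeR gave 51 and 21, in DOCA–HS rats it gave 1173 without the first and 119 without the second library after CMG, and in AngII rats 281 without the first library after CMG.

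The size of the Atp2b1 difference rested on 1 library. The first DOCA–HS library after CMG held 2.46 and 2.38 times the CPM of the libraries before it, and the second held 18.4 and 17.8 times. Without the second library, the log2 fold change was 1.29 (SE 0.31) and no longer met the criterion. Ranked by the ratio of the library to the mean of its model before CMG, Atp2b1 came first of 6097 genes in the second DOCA–HS library after CMG, with a log2 ratio of 4.10 ahead of Bglap at 3.66, and 60th in the first, with a log2 ratio of 1.23. In the AngII libraries after CMG it came 2115th and 4212th of 5789 genes.

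**Figure D1:**
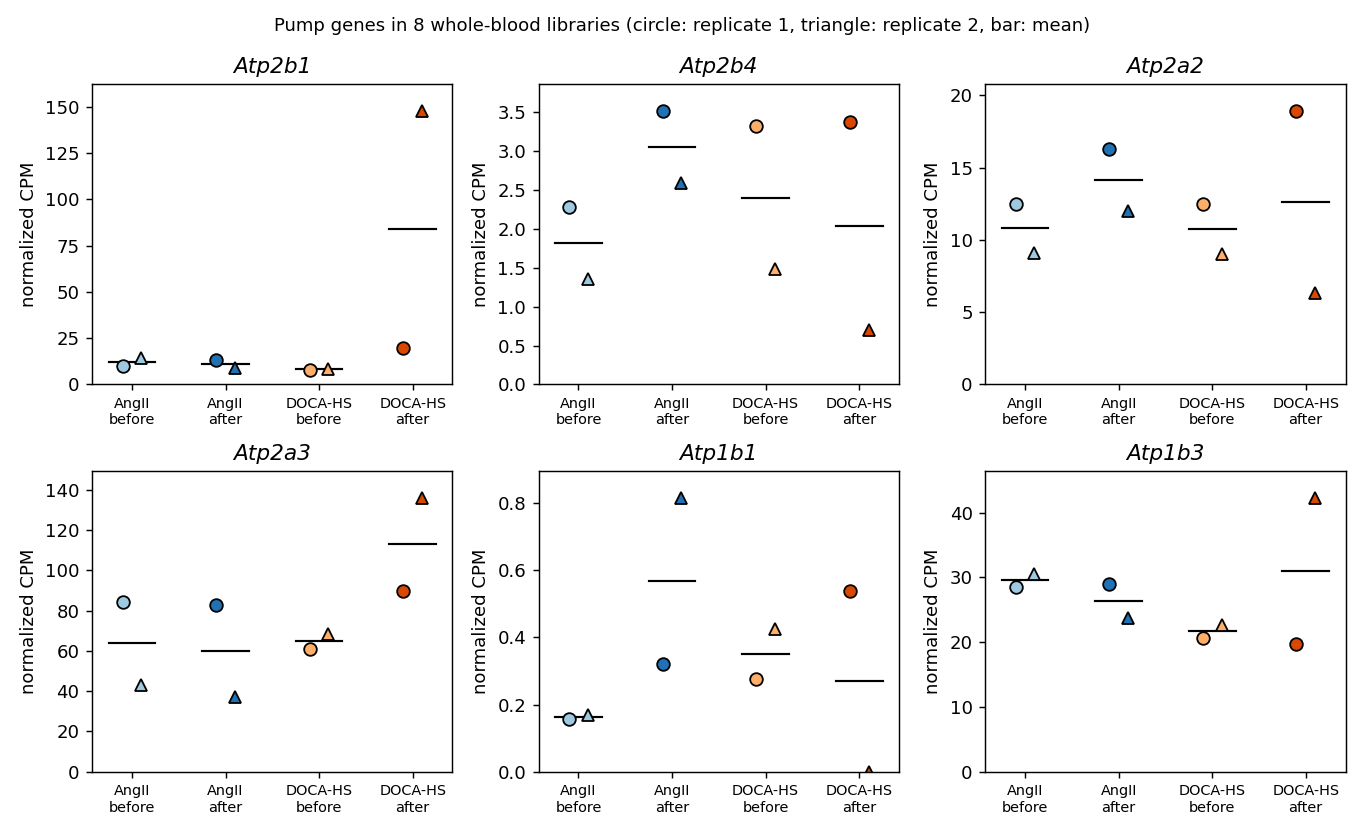
Normalized CPM (vertical axes, each from 0) of the 6 pump genes in the 8 libraries by group, with replicate 1 as a circle, replicate 2 as a triangle and the group mean as a bar. Atp2b1 sits between 8.03 and 14.02 in the 6 libraries of the other groups, and at 19.8 and 148 in the DOCA–HS group after CMG.

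The scale on which the libraries were set side by side changed the size of the Atp2b1 difference and the order of the libraries other than the highest 2. On the scale of CPM outside hemoglobin, Atp2b1 stood at 39.5 and 32.9 before and at 86.3 and 322 after CMG in DOCA–HS rats, and at 27.8, 36.1, 36.9 and 37.7 in the AngII libraries. On the scale of CPM of all counts, it stood at 15.1 and 9.54 before and at 28.4 and 50.6 after CMG in DOCA–HS rats, and at 9.47, 10.9, 11.9 and 11.9 in the AngII libraries. On both scales the 2 DOCA–HS libraries after CMG were the highest of the 8. The fitted log2 fold change was 2.48 when scaled to counts outside hemoglobin and 1.68 when scaled to all counts, where it missed the criterion. These scalings moved the median log2 fold change of all genes from −0.04 to −0.41 and −0.76 in DOCA–HS rats, and from −0.01 to 0.38 and 0.36 in AngII rats. Outside hemoglobin, Atp2b1, Atp2b4, Atp2a2 and Atp1b3 were each higher in both AngII libraries after CMG than in both before it, beside that shift of all genes. The share of all genes without overlap was not counted on this scale, so nothing is read from this separation. Atp2b1 had a log2 fold change of 0.23 there.

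A ratio of counts within a library does not depend on its scaling. The ratio of Atp2b1 to Atp1b3 counts was 0.344 and 0.459 before and 0.448 and 0.368 after CMG in AngII rats, and 0.388 and 0.366 before and 1.00 and 3.50 after CMG in DOCA–HS rats. Here both DOCA–HS libraries after CMG lay above the other 6.

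Of the counts on the 6 genes together, Atp2b1 took 7.14% and 14.3% before and 8.94% and 10.3% after CMG in AngII rats, and 7.59% and 7.51% before CMG in DOCA–HS rats. After CMG in DOCA–HS rats it took 12.97% (95% exact binomial interval, 11.5 to 14.5) of 1981 counts in the first library and 44.4% (39.9 to 49.0) of 473 counts in the second. The interval of the first library overlapped those of the second AngII libraries before and after CMG, and the interval of the second library overlapped none of the other 7. Such intervals cover counting error only, as reads were not marked as molecules.

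**Figure D2:**
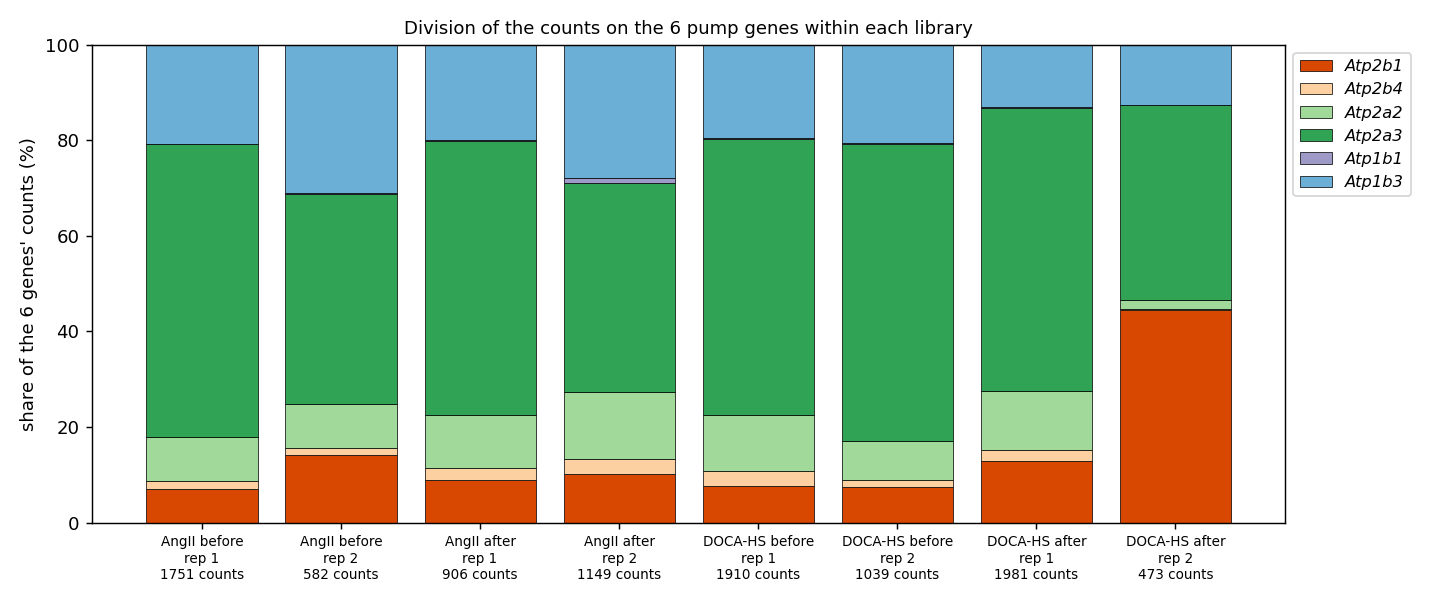
Share (vertical axis, in percent) of the counts on the 6 pump genes that fell on each gene, with 1 stacked bar per library and the summed count under it. The Atp2b1 segment makes up 44.4% in the second DOCA–HS library after CMG and 7.14% to 14.3% in the other libraries.

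Atp2b4, the second plasma membrane calcium ATPase found in blood, did not follow Atp2b1. In DOCA–HS rats its normalized CPM was 3.32 and 1.49 before and 3.38 and 0.703 after CMG, with overlapping groups. The last value rests on 1 count, under the 3 counts (2.11 CPM in that library) that a count of 0 would allow. Its log2 fold change there was 0.13 (SE 0.63), and 0.43 (SE 0.42) without that library. In AngII rats it stood at 2.28 and 1.35 before and 3.52 and 2.59 after CMG, from 8 to 35 counts. Both libraries after CMG were higher than both before it, and on this scale Atp2b4 was the only one of the 5 members tested whose AngII groups did not overlap, beside 21.3% of all genes higher and 18.5% lower without overlap. The log2 fold change was 0.67 (SE 0.42), below the criterion. Atp2b2 and Atp2b3, the plasma membrane calcium ATPases known from brain and muscle, had 0 counts in all 8 libraries, which allows up to 3 counts in each.

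Atp2a2, which encodes the calcium ATPase of the reticulum of most cells, stood at 12.5 and 9.12 CPM before and 16.3 and 11.98 CPM after CMG in AngII rats, and at 12.5 and 9.03 before and 18.9 and 6.33 after CMG in DOCA–HS rats. The groups overlapped in both models, and the log2 fold changes were 0.39 (SE 0.33) and 0.33 (SE 0.55). The 6.33 CPM of the second DOCA–HS library after CMG rests on 9 counts. Without that library the DOCA–HS value was 0.82, and without the first library after CMG it was −0.77, so that the 2 libraries after CMG lay on opposite sides of those before it.

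Atp2a3 stood at 61.0 and 68.5 CPM before and 90.0 and 136 CPM after CMG in DOCA–HS rats, and at 84.3 and 43.1 before and 82.9 and 37.1 after CMG in AngII rats. The DOCA–HS groups did not overlap, the AngII groups did, and in AngII rats the difference between replicates was larger than that between groups. With Atp2b1, this made 2 of the 5 members that were higher without overlap after CMG in DOCA–HS rats, beside 14.7% of all genes. The log2 fold change was 0.80 (SE 0.51) in DOCA–HS rats, 0.48 (SE 0.38) without the second library after CMG, and −0.08 (SE 0.49) in AngII rats. Scaled to all counts, the DOCA–HS value was −0.13 and its sign turned, and in CPM outside hemoglobin the groups overlapped, at 300.2 and 272 before and 393 and 296 after CMG.

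Platelet markers moved with Atp2a3 across the libraries. Of 10 listed markers, 7 were in the counts and 6 had counts in every library, among them Pf4, Clec1b, Treml1 and Itgb3. Their summed normalized CPM was 802 and 228 before and 691 and 74.6 after CMG in AngII rats, and 280 and 421 before and 788 and 1304 after CMG in DOCA–HS rats, so that the order of the libraries was close to that of Atp2a3. Of the 6 markers tested, 2 were upregulated after CMG in DOCA–HS rats, beside 1.79% of all genes, with a median log2 fold change of 1.34. Without the second library after CMG, 1 was upregulated, beside 1.15% of all genes, and the median was 1.06, a check added after seeing the data. In AngII rats 0 were upregulated, beside 0.903% of all genes, with a median of −0.33. Within the second DOCA–HS library after CMG the markers did not move as one: Treml1 stood at 205 CPM against 64.9 in the first library, and Itgb3 at 7.73 against 81.4. In CPM outside hemoglobin the order was less close: the second AngII library after CMG had the lowest platelet sum, 323, but 161 for Atp2a3, above the 111 of the second library before CMG, whose platelet sum was 588. The part of platelets in the Atp2a3 values was not tested.

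For Atp2b1 the same markers gave another order. The first AngII library before CMG and the first DOCA–HS library after CMG had nearly the same platelet sum, 802 and 788 CPM, while Atp2b1 stood at 9.83 and 19.8 CPM. The second DOCA–HS library after CMG had both the highest platelet sum and the highest Atp2b1. That library also had the highest sum of red cell markers, 53109 CPM, whereas the first held 15594 CPM, within the range of 14667 to 37998 CPM of the other 6. Endothelial markers summed to 59.4 and 160 CPM in the DOCA–HS libraries after CMG and to 22.0 to 56.9 CPM in the other 6. Most of the sum in these 2 libraries was Vwf, at 44.8 and 148 CPM, against 8.43 to 44.9 CPM in the other 6. Pecam1 stood at 12.5 and 9.14 CPM after CMG in DOCA–HS rats and overlapped its levels before CMG. Vwf was lowest and highest in the libraries with the lowest and highest platelet sums, 74.6 and 1304 CPM. Only 3 of the 8 endothelial markers had enough counts to be tested in DOCA–HS rats, so the list cannot show whether they rose as a group. The part of these cell types in the Atp2b1 values was not tested.

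**Figure D3:**
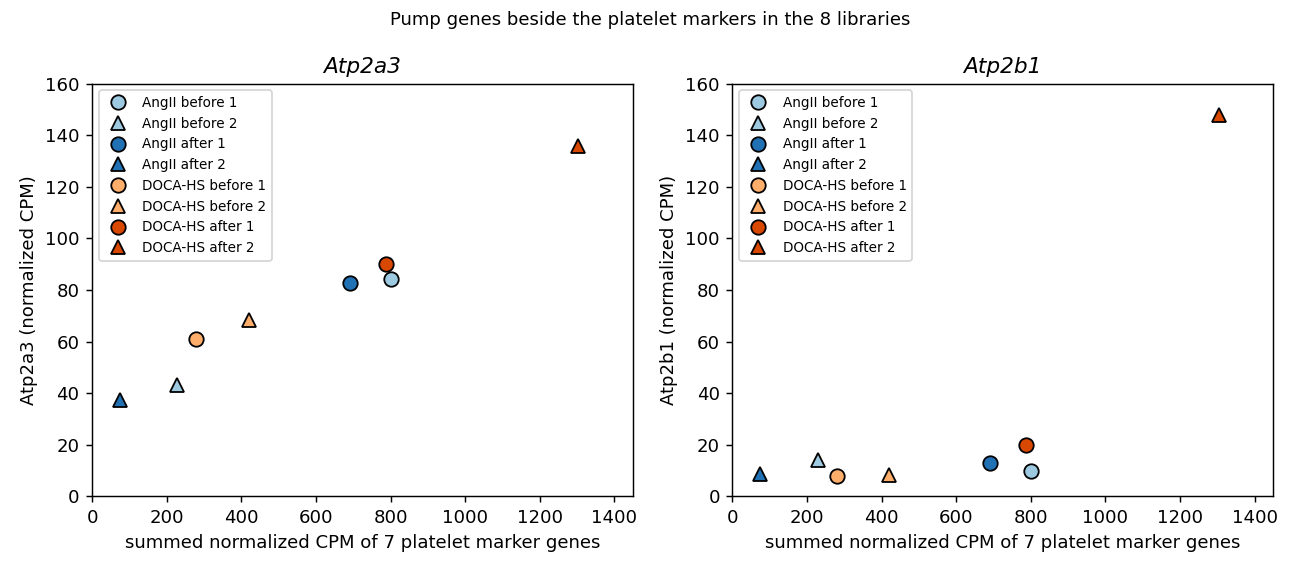
Normalized CPM of Atp2a3 (left) and Atp2b1 (right) on the vertical axes against the summed normalized CPM of the platelet markers on the horizontal axes, with 1 point per library, circles for replicate 1 and triangles for replicate 2. Atp2a3 increases from 37.1 to 136 CPM along the axis, while Atp2b1 stays at or below 19.8 CPM in every library but the one at 1304 CPM of platelet markers.

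Atp1b3, a widely expressed beta subunit, stood at 28.5 and 30.6 CPM before and 29.0 and 23.7 after CMG in AngII rats, and at 20.7 and 22.6 before and 19.8 and 42.2 after CMG in DOCA–HS rats. Both pairs of groups overlapped, with log2 fold changes of −0.14 (SE 0.30) and 0.49 (SE 0.51). Without the second DOCA–HS library after CMG, the DOCA–HS value was −0.12, and scaled to all counts it was −0.60. In CPM outside hemoglobin the 8 libraries lay between 78.8 and 103.

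Atp1b1, the beta subunit of kidney, heart and most other tissues, was close to the limit of detection. It had 2 and 1 counts before and 2 and 11 after CMG in AngII rats, and 5 and 4 before and 7 and 0 after CMG in DOCA–HS rats. It did not pass the minimum count of the fits and was not tested. Its highest level was 0.814 CPM, in the second AngII library after CMG, and a count of 0 in the second DOCA–HS library after CMG allows up to 2.11 CPM, above every level measured. In AngII rats both libraries after CMG were higher than both before it, at 0.320 and 0.814 against 0.157 and 0.169 CPM, but all except 1 of these values rest on 1 or 2 counts, so no fold change is given.

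**Figure D4:**
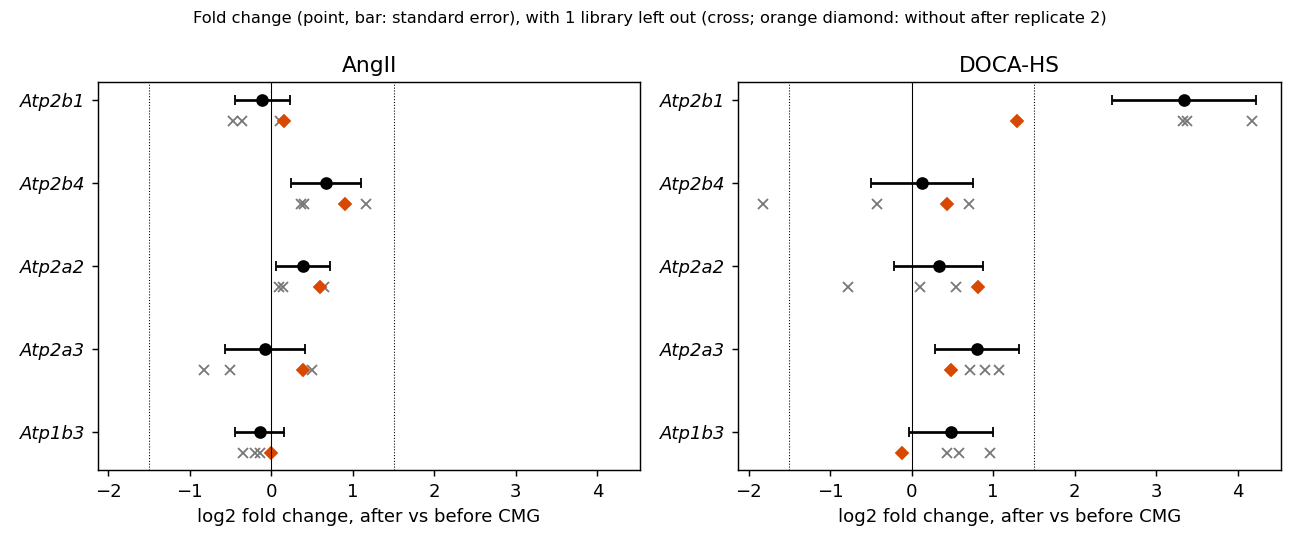
Log2 fold change after against before CMG (horizontal axis) of the 5 pump genes tested in the AngII (left) and DOCA–HS (right) models as points with the standard error as bars, and under each the values with 1 library left out, where an orange diamond marks the fit without the second library after CMG. Dotted lines mark the fold of the criterion, 1.5 on the log2 scale, which Atp2b1 passes in DOCA–HS rats at 3.34 and falls short of at 1.29 without that library.

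Between the models, Atp2b1 and Atp1b3 were lower in both DOCA–HS libraries than in both AngII libraries before CMG, with log2 fold changes of −0.54 (SE 0.72) and −0.45 (SE 0.42), beside 21.2% of all genes lower without overlap. Neither met the criterion, which 0.413% of genes met in that direction, and in CPM outside hemoglobin both genes overlapped or turned: Atp2b1 stood at 27.8 and 36.1 in the AngII and 39.5 and 32.9 in the DOCA–HS libraries, and Atp1b3 at 80.8 and 78.8 against 102 and 89.8. After CMG, Atp2b1 and Atp2a3 were higher in both DOCA–HS libraries than in both AngII libraries, beside 10.8% of all genes, with log2 fold changes of 2.92 (SE 0.76) and 0.91 (SE 0.52). Atp2b1 met the criterion there, as 1.09% of genes did, and without the second DOCA–HS library after CMG its value was 0.88 and missed the criterion, while that of Atp2a3 was 0.59.

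The difference between the models in the change from before to after CMG was 3.46 (SE 1.03) on the log2 scale for Atp2b1, which met the criterion, as 2.25% of all genes did in this direction. It missed the criterion without the second DOCA–HS library after CMG, at 1.42, and scaled to total counts, at 1.46. The other members had differences of −0.53 (Atp2b4), −0.03 (Atp2a2), 0.89 (Atp2a3) and 0.64 (Atp1b3), and none met the criterion. With 1 library left out, these differences ranged from −2.44 to 0.11, −1.13 to 0.45, 0.31 to 1.57 and 0.04 to 1.12, in the same order. These comparisons share their libraries with those within each model and add no samples. In the edgeR fit as described, 0 genes passed an adjusted p of 0.05 in the 3 comparisons that involve both models, with 119 higher and 151 lower at an unadjusted p of at most 0.05 before CMG, 164 and 59 after CMG, and 202 and 97 for the difference. DESeq2 gave 2, 1 and 1 genes with an adjusted p under 0.05, edgeR without the count minimum gave 7, 38 and 20, and without the first DOCA–HS library after CMG it gave 234 after CMG and 146 for the difference.

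The other genes of calcium and sodium transport were taken from 7 lists (calcium pumps, sodium and proton potassium pumps, other P-type ATPases, calcium pump regulators, calcium entry, release and exchange, sodium entry and exchange, and regulators of sodium transport), with the 6 members left out. In AngII rats 78 such genes were tested, 0 met the criterion, and 7 were higher and 0 lower at an unadjusted p of at most 0.05, beside 5.04% and 1.61% of all genes. Their median log2 fold change was 0.10, beside −0.01 over all genes. In DOCA–HS rats 79 were tested, 2 were upregulated and 0 downregulated, and 3 were higher and 0 lower at an unadjusted p of at most 0.05, beside 2.73% and 0.44% of all genes, and the median was −0.03, beside −0.04 over all genes.

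In AngII rats the genes with the smallest p were mostly channels and transporters. Piezo1, a mechanically gated cation channel, stood at 7.07 and 6.42 CPM before and 13.8 and 11.3 CPM after CMG, with a log2 fold change of 0.90 (SE 0.30; edgeR adjusted p = 0.628). Trpv2 and Trpm2, which encode calcium-permeable channels of leukocytes, had log2 fold changes of 0.96 and 0.77. Slc20a1, a sodium-dependent phosphate transporter, had 0.75, Atp13a2, a P-type ATPase of lysosomes, had 0.88, and Slc8b1, the mitochondrial sodium calcium exchanger, had 1.01. All 6 were higher without overlap after CMG, beside 21.3% of all genes, and stayed positive with any 1 of the 4 libraries left out. All except Slc8b1, which was of the fixed set, were picked for a small p and no overlap. Their separation was thus set by the choice, and a positive value with 1 library left out largely follows from it. All 6 fell short of the fold of the criterion. None passed an adjusted p of 0.05.

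In DOCA–HS rats the upregulated transport genes were Calm3 and Trpc6. Calm3, 1 of the genes for calmodulin, the activator of the plasma membrane calcium ATPases, stood at 20.5 and 22.6 CPM before and 35.1 and 134 CPM after CMG, with a log2 fold change of 1.96 (SE 0.67; edgeR adjusted p = 0.997). As for Atp2b1, both libraries after CMG were higher and the second held most of the difference: without it, the value was 0.72. Calm2, which encodes the same protein, had a log2 fold change of −0.10. Trpc6, a receptor-operated cation channel of platelets and smooth muscle, had 25 and 6 counts before and 49 and 2 after CMG and a log2 fold change of 1.55, which was 0.39 without the first and 1.80 without the second library after CMG. Slc24a3, a potassium-dependent sodium calcium exchanger, stood at 5.59 and 10.3 CPM before and 18.2 and 19.0 CPM after CMG, with a log2 fold change of 1.24. The value was 1.23 without the second library after CMG, 0.85 and 1.75 without the first and second before it, and 0.55 with total counts. Its AngII replicates lay far apart, at 19.1 and 4.05 CPM before and 14.9 and 0.96 CPM after CMG.

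In DOCA–HS rats the pump Atp2c1 and the calcium entry genes Stim1 and Orai1 had smaller log2 fold changes than Atp2b1 in the fit of all libraries. Without the second library after CMG, Atp2b1 was at 1.29, below the channel gene Trpc6 at 1.80. Atp2c1, the calcium and manganese pump of the Golgi, had log2 fold changes of 0.05 (SE 0.36) in AngII rats and 0.55 (SE 0.45) in DOCA–HS rats. Stim1 and Orai1, the sensor and the channel that let calcium in when the store is empty, had −0.20 and −0.05 in AngII rats and 0.56 and 0.63 in DOCA–HS rats. None of these passed the test in either model. Atp2a1, the calcium ATPase of fast muscle, had 1 to 8 counts per library.

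**Figure D5:**
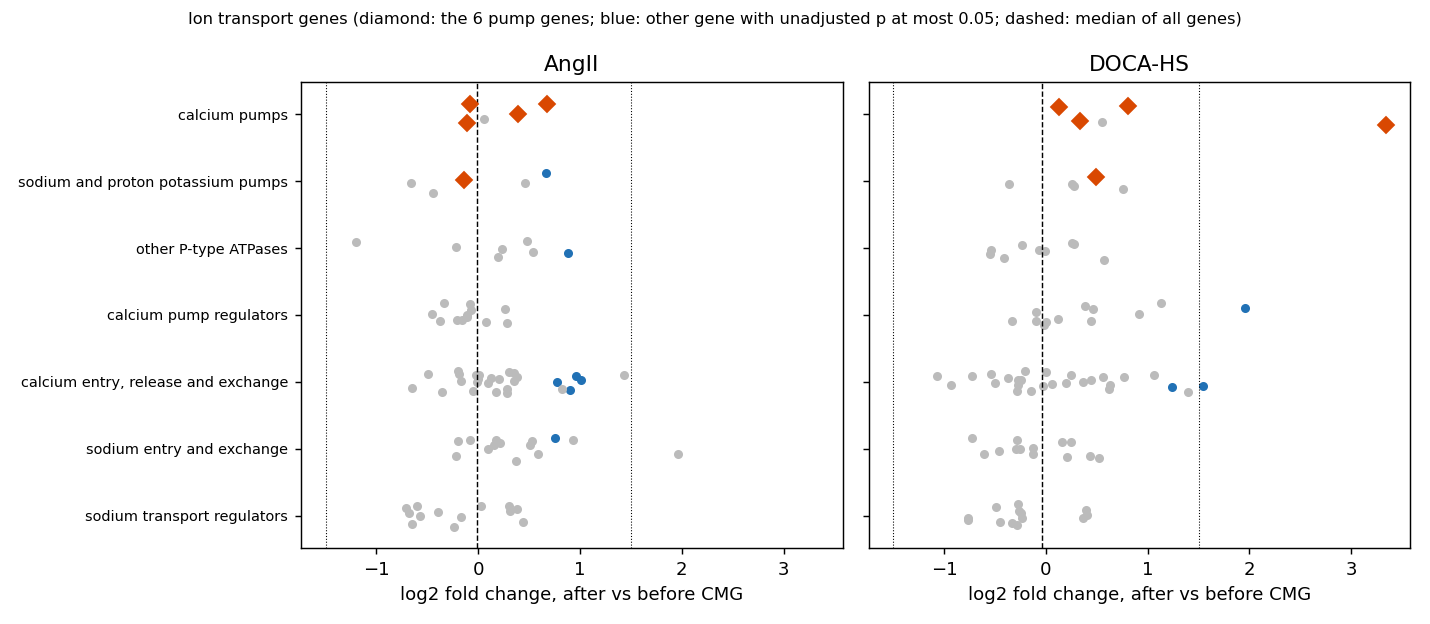
Log2 fold change after against before CMG (horizontal axes) of the transport genes tested in the AngII (left) and DOCA–HS (right) models, by list (vertical axis, points spread within a list for legibility). Orange diamonds are the pump genes described, blue points other genes with an unadjusted p of at most 0.05, the dashed line the median of all genes and dotted lines a log2 fold change of 1.5. Atp2b1 at 3.34 in DOCA–HS rats lies beyond every other transport gene in this fit. Without the second DOCA–HS library after CMG (not drawn) it was 1.29, below Trpc6 at 1.80.

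The genes most like each member were sought by Pearson r of log2 CPM over the 8 libraries, among the 4701 or 4702 other genes that averaged 20 counts or more and had no library under 3 counts. These r values are a description, as the points share their library, depth and scaling. For Atp2b1 they were Upf3b, Kif5b and Cdyl (r = 0.98 each), falling to 0.86, 0.81 and 0.80 over the 7 libraries without the second DOCA–HS library after CMG. Upf3b, which acts in nonsense-mediated decay, stood at 16.1 and 19.4 CPM before and 32.4 and 152 CPM after CMG in DOCA–HS rats, and at 22.2 to 36.5 CPM in the AngII libraries. For Atp2a3 they were Ilk, Ptprj and Ttc27 (r = 0.99 each), and r was also 0.99 for each over the 7 libraries. Atp2a2 was most like Tm9sf4 (r = 0.99), Parp14 and Itga4, and Atp2b4 most like Itga4 (r = 0.98), Parp14 and Adcy7. Between members, r was −0.67 for Atp2b1 with Atp2b4 and 0.69 for Atp2b1 with Atp2a3 over the 8 libraries, and 0.19 and 0.34 over 7, so that both values rested on the second DOCA–HS library after CMG.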

How the data were processed

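The authors sequenced whole-blood RNA of the 8 libraries, aligned single-end reads to rn6 with HISAT2 and counted them on genes by strand with HTSeq, and they deposited raw counts per gene. The authors state that hemoglobin annotations were removed, yet Hbb and LOC100134871 lead the deposited counts. Of 17446 genes, 5754 had no count.

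The counts were fitted with edgeR 4.0.16 in R 4.3.3 (filterByExpr, TMM, quasi-likelihood test, Benjamini-Hochberg adjustment). Comparisons of after with before CMG used the 4 libraries of a model (7201 and 7720 genes). Those between models used all 8 libraries with 4 group means (7994 genes). A prior count of 2 entered the log2 CPM values, such as those behind r, while the edgeR fits kept their default. The call criterion (log2 fold change beyond 1.5, unadjusted p of at most 0.05) is that of the study. Replicate libraries differed by more than sampling noise in every group (chi-square per degree of freedom, 17.6 to 104.0). The p-values set a difference between groups against the spread between these libraries, which need not be that between rats. The members and lists were chosen with earlier results of these data known. Named transport genes were a fixed set of partners and regulators plus, in each model, up to 5 genes per direction with the smallest p and no overlap, and the 3 genes most like each member by r. The alternatives were DESeq2 1.42.0, its size factors, scaling to total counts with and without hemoglobin, other count minimums, the replicate number as a block, 1 fit of all libraries and leaving out each library. The steps were tested on simulated data. Some listed genes are not reported here.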

Additional observations from a re-analysis of the deposited data

Results flagged for a closer look

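Calm3 and Atp1b2, of the listed transport genes, met the criterion for a difference between the models in the change from before to after CMG (edgeR, all 8 libraries), as 2.25% of all genes did in this direction. Atp2b1 is listed beside them as a description, since it was chosen by these values: it had a log2 difference of 3.46, missed the criterion at 1.42 without the second DOCA–HS library after CMG and at 1.46 with total counts, and was higher in 2 of 2 DOCA–HS libraries after CMG than in both before it. Calm3 had a log2 difference of 2.35 (SE 0.84; edgeR adjusted p = 0.881), as it changed by −0.38 under AngII and by 1.96 under DOCA–HS. Atp1b2, a beta subunit of the sodium potassium ATPase, had a log2 difference of 2.98 (SE 1.03; edgeR adjusted p = 0.881). It had 24 and 5 counts before and 10 and 6 after CMG in AngII rats, and 6 and 5 before and 27 and 3 after CMG in DOCA–HS rats, where it did not pass the count minimum of the fit within the model, so that its difference rests on few reads.

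Nedd4l, the ubiquitin ligase that removes the epithelial sodium channel from the membrane, moved in opposite directions: it stood at 95.7 and 98.0 CPM before and 82.1 and 46.2 after CMG in AngII rats, and at 44.7 and 42.4 before and 50.7 and 64.0 after CMG in DOCA–HS rats. The difference of 0.99 on the log2 scale (SE 0.59) did not meet the criterion (edgeR adjusted p = 0.881). Scaled to total counts, the DOCA–HS change was −0.48 and the opposite direction was lost.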

How the results depend on the processing

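Atp2b1 was higher after CMG in the DOCA–HS model under all 12 alternatives and met the criterion under 10, missing it with total counts (1.68) and without the second library after CMG; with 1 library left out it ranged from 1.29 to 4.18, its difference from the AngII model after CMG from 0.88 to 3.75 and the difference between the models from 1.42 to 4.30. Over all alternatives, the before-CMG difference of Atp2b1 ranged from −0.79 to 0.27 and its AngII change from −0.47 to 0.23, so that both signs turned; with 1 library left out these ranges were −0.79 to −0.27 and −0.47 to 0.15. The difference between the models missed the criterion with total counts (1.46).

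Counts of called genes moved far more. With 1 library left out, the called genes numbered 123 to 403 in the AngII model (89 with all), 28 to 1712 in the DOCA–HS model (158), 72 to 115 between the models before CMG (67), 71 to 1496 after CMG (112) and 72 to 1922 for the difference (253), and the called transport genes 0 to 5 (0), 0 to 16 (2), 0 to 2 (1), 0 to 17 (1) and 0 to 22 (2). In the same order of comparisons, and naming only counts that moved by over 1.5 times, total counts gave 222, 9, 20 (after CMG) and 32 genes and 2, 0, 0, 0 and 0 transport genes. Scaling to counts outside hemoglobin gave 238, 32, 284, 70 and 164 genes and 2, 0, 2 and 0 transport genes. No filter gave 201, 268, 146, 211 and 577 genes and 1, 4, 3 and 8 (difference) transport genes, and at least 10 counts in every library gave 22, 32, 2, 16 and 40 genes and 0 transport genes in the DOCA–HS model and in both comparisons between the models. One fit of all libraries gave 1 transport gene in the AngII model. DESeq2 gave 1 transport gene in the DOCA–HS model and 0 before CMG. The share of upregulated among called genes moved from 65 of 89 to 210 of 222 in the AngII model and from 138 of 158 to 0 of 9 in the DOCA–HS model with total counts. The cause was not tested.

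Libraries with the same number deviated together weakly (r = 0.41 and 0.31 for the 2 pairs of each model), and nothing says that a number marks a rat. With the replicate number as a block, the genes with an adjusted p under 0.05 numbered 165 under AngII, 0 under DOCA–HS, and 6, 94 and 5 in the comparisons before CMG, after CMG and of the difference, where the fits without it gave 0. The after-CMG comparison then called 216 genes and 3 transport genes, the difference 454 and 5, and the transport genes called were 1 in each model and 0 before CMG; Atp2b1 had a log2 fold change of 2.71 in the DOCA–HS model and met the criterion.

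The signs of the other members changed with the setting: in the DOCA–HS model Atp2b4 ranged from −1.83 to 0.71, Atp2a2 from −0.77 to 0.82, Atp2a3 from −0.13 to 1.07 and Atp1b3 from −0.60 to 0.96. Depth limits Atp2b4 and Atp1b1, with at most 60 and 11 counts in a library.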
